A study of Mus musculus with 6 samples.

Results

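The genes described here are 88 members of the Wnt, Notch, BMP and TGF-beta signalling families, out of 11138 named genes measured on the arrays. They were chosen by gene symbol alone, as Wnt ligands, Frizzled receptors, Sfrp and Dkk antagonists, Notch receptors with their Delta and Jagged ligands, Hes and Hey repressors, BMPs and their receptors, activin receptors, Smads, TGF-beta genes and Id genes. All 88 had a value on every array, from 184 spots, and no filter on low values was applied. 5 of them carry a family symbol without being a core ligand, receptor or Smad: Bmp1 is a procollagen protease, Dkkl1 a relative of the Dickkopf antagonists, Tgfbi a matrix protein induced by TGF-beta, Tgfb1i1 a focal adhesion and nuclear cofactor also called Hic-5, and Tgfbr3 a co-receptor.

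These pathways carry short-range signals that shape vessels. Wnt proteins bind Frizzled receptors and stabilise beta-catenin, and Fzd4 is the receptor through which norrin builds the retinal and brain vasculature. Notch receptors are cleaved when a neighbouring cell presents Delta or Jagged, and the released domain switches on Hes and Hey repressors, which take part in tip cell choice and arterial identity. BMPs signal through Smad1, Smad5 and Smad9 to Id genes and to the inhibitory Smad6 and Smad7, whereas TGF-beta signals mainly through Smad2 and Smad3. Mutations of BMPR2, ACVRL1 and ENG cause human pulmonary hypertension and hereditary telangiectasia.

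The series compared smoke-exposed with control mice in sorted endothelial cells, 2 RNAs to an array, on 6 arrays, the smoke being environmental tobacco smoke. 3 arrays held a 1-week exposure against control, of which replicate 1 had its dyes reversed; the age of that control is not given. Smoke for 6 weeks was set against the control of 1 week on a pair of arrays, the other of which was the dye reversal, and against a control of 6 weeks on 1 array. Organ, sorting markers, strain, sex, age and smoke dose of the animals are not given in the sources used here, nor is it said whether the arrays of a group drew on separate animals or pools, so each p-value below measures the spread between arrays, which may be technical.

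Every value is a log2 ratio as deposited, and nothing states which RNA is its numerator. Smoke is named first in the titles and stands in channel 1 on all 6 arrays, dye reversals included, so a positive ratio is read as likely higher after smoke. Whether the 2 dye-reversed ratios had been turned before deposit is not stated either. Main values leave all signs as deposited, and values with those arrays turned or left out stand beside some of the results they move. Values by array are listed as 1-week replicates 1, 2 and 3, then 6-week smoke against 1-week control, its dye reversal, and 6-week smoke against 6-week control. A mean at 6 weeks is over 2 replicates, the dye pair having been averaged. Each SE is that of limma, which pooled the spread of a gene over 5 replicates and moderated it across 19242 tests on named genes and unnamed features.

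Signal was noisy at the level of the spot. A member was printed in 2 spots (84 genes) or 4 (Fzd2, Hes5, Id2 and Jag2), and over the 84 paired genes the spots correlated between r = 0.0157 on 1-week replicate 3 and r = 0.671 on 6-week smoke against 1-week control. Across the 10180 named genes with paired spots the same correlation lay between 0.209 and 0.420. These correlations are across genes, which are not independent replicates. The highest and lowest spot of a gene stayed within 1 log2 unit of each other on each of the 6 arrays in 52 of the 88 members (59.1%) and in 5625 of the 11138 named genes (50.5%); these are called genes with agreeing spots and were fitted a second time on their own. A ratio has no level, so markers could not be used to check the labelled cell type. The ratios of 17 measured endothelial markers had medians between -0.48 and 0.01 by array, and those of 14 measured mural and fibroblast markers between -0.29 and 0.17. No intensities were used, so signal over background is unknown.

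After 1 week of smoke, 13 members had positive ratios on all 3 arrays, against 11.7% of all features and 15.4% of named genes. Bmp4 (a secreted BMP ligand), Fzd4 (the norrin and Wnt receptor), Id3 (an Id protein that blocks basic helix-loop-helix factors and a common BMP target) and Smad1 (a transducer of BMP signals) had ratios above 0.50 on all 3 arrays. Bmp4 alone among these 4 stayed as high at 6 weeks. The share of all features above 0.50 on all 3 arrays was not counted. With both dye reversals turned, replicate 1 of all 4 fell below 0. The 1-week means then were 0.35 for Bmp4, 0.32 for Fzd4 and 0.19 for Id3. Fzd9 and Sfrp1 had 1-week means of 1.18 and 0.67, but their 1-week arrays lay on both sides of 0. Tgfb1i1 and the inhibitory Smad6 had the most negative 1-week means of the 88 as deposited (-0.79 and -0.67), whereas with both dye reversals turned they stood at -0.33 and -0.21 and the lowest were Id4 (-0.73) and Hey2 (-0.63). Most of the 88 genes lay close to 0, with a median of -0.05 at 1 week and 0.0056 at 6 weeks against a median of 0.00 over all features.

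None of these ratios passed in the fit over all features, in which limma with Benjamini-Hochberg adjustment called 0 of 88 members and 0.0% of the 19242 features in each of the 4 contrasts (1 week, 6 weeks, their difference, and the mean of both times). At an unadjusted p under 0.05 there were 7 members at 1 week (7.95%), against 6.65% of all features. The 7 were Bmp4, Fzd4, Id3, Smad1 and Hey1 with positive means, and Tgfb1i1 and Smad6 with negative ones; over all features 3.53% were positive and 3.12% negative. At 6 weeks there were 3 members, Bmp4 with a positive mean and Hey1 and Fzd1 with negative ones, against 4.12% of all features, 2.18% positive and 1.94% negative. For the mean of both times there were 5 members, Bmp4, Fzd4, Id3 and Hes1 positive and Fzd1 negative, against 6.31% of all features, 3.2% positive and 3.12% negative. The share of members at this level lay near the background in each of these contrasts.

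Among the 5625 genes with agreeing spots, limma called 3 of the 52 members at 1 week, all with positive means: Bmp4 (adjusted p = 0.0393, 0.0235 to 0.890 over 18 alternatives), Fzd4 (adjusted p = 0.0241, 0.0142 to 0.909) and Id3 (adjusted p = 0.0241, 0.0133 to 0.945). The background there was 1.81% of genes, and 1.01% with a positive mean. At an unadjusted p under 0.05 there were 6 members, all positive (these 3 with Smad1, Hes1 and Hey1), against 14.1% of genes and 7.56% with a positive mean. At 6 weeks 0.213% of these genes and 0 members were called, with Bmp4 nearest to the threshold (adjusted p = 0.0588, 0.0224 to 1.00 over the alternatives), and 3 members (Bmp4, Hey1 and Fzd7) were at an unadjusted p under 0.05 against 7.77% of genes. In the mean of both times 1.83% of genes were called, and 1.17% with a positive mean, among them 1 member, Bmp4 (adjusted p = 0.00788); at an unadjusted p under 0.05 there were 6 members against 14.3%. The 3 calls at 1 week were all lost when any 1-week array was left out and when the array against 6-week control was left out (adjusted p between 0.0527 and 0.213), and 2 of them, Fzd4 and Id3, held without either array of the 6-week dye pair. Bmp4 passed in 5 of the 18 alternatives, Fzd4 in 9 and Id3 in 10. All 3 calls were lost with both dye reversals turned, on the 4 arrays without dye reversal, and with the 1-week dye reversal averaged with replicate 3 as if it were the same RNA; averaged with replicate 2 instead, 1 was kept.

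**Figure D1:**
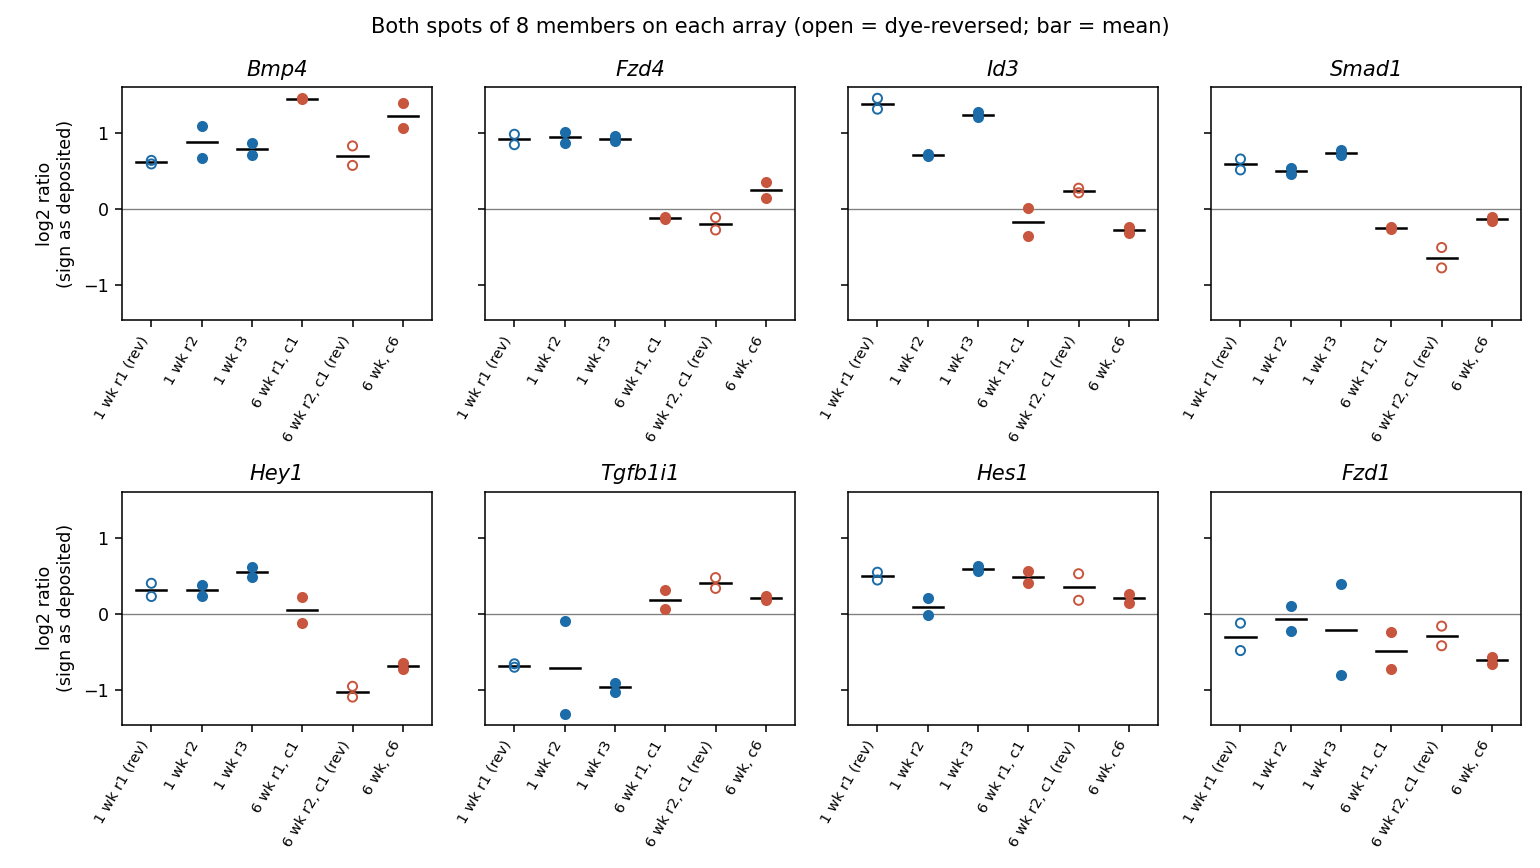
Log2 ratio (vertical axis, sign as deposited) of both spots of 8 members (points, with a bar at their mean) on each of the 6 arrays (r, replicate; c1 and c6, control of 1 and 6 weeks; rev and open points, dyes reversed; blue, 1 week; red, 6 weeks). Bmp4 was positive on all 6 arrays, while Fzd4, Id3 and Smad1 were positive on the 3 1-week arrays and lay around or below 0 on the 6-week arrays.

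Bmp4 was positive on every array of both exposures. Its ratios were 0.62, 0.88 and 0.79 at 1 week and 1.45, 0.70 and 1.23 at 6 weeks. The 2 ranges overlapped, the 6-week dye reversal lying within the 1-week values. The mean was 0.76 ± 0.15 (SE, n = 3 replicates, limma adjusted p = 0.485 over all features) at 1 week and 1.16 ± 0.19 (n = 2, adjusted p = 0.746) at 6 weeks. Over both times it was 0.96 ± 0.12 (limma adjusted p = 0.334). The difference between the times, 0.39 ± 0.24, did not reach an unadjusted p under 0.05. Its spots differed by at most 0.41 on any array. With both dye reversals turned, the means became 0.35 at 1 week and 0.80 at 6 weeks, and on the 4 arrays without dye reversal they were 0.84 and 1.34.

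Fzd4 and Id3 were high at 1 week and near 0 at 6 weeks. Fzd4 stood at 0.92, 0.95 and 0.93 at 1 week and at -0.11, -0.19 and 0.25 at 6 weeks. The groups did not overlap, and the 1-week arrays lay closer together for Fzd4 than for the other genes of this group. Its mean was 0.93 ± 0.16 (SE, n = 3, limma adjusted p = 0.455) at 1 week and 0.05 ± 0.19 (n = 2) at 6 weeks. Id3 stood at 1.39, 0.71 and 1.24, then at -0.17, 0.24 and -0.27. The 1-week replicate 2 was the lowest of its group, and again no 6-week array reached a 1-week value. The share of all features with groups that did not overlap was not counted, so this only describes Fzd4 and Id3. The 1-week mean of Id3 was 1.12 ± 0.20 (limma adjusted p = 0.455) and the 6-week mean -0.12 ± 0.24. Spots of Fzd4 differed by at most 0.21 and those of Id3 by at most 0.37. With both dye reversals turned, the 1-week means were 0.32 for Fzd4 and 0.19 for Id3, which gives replicate 1 the opposite sign from replicates 2 and 3.

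Smad1 had the same shape at a smaller size. It stood at 0.59, 0.51 and 0.74 at 1 week and at -0.25, -0.64 and -0.12 at 6 weeks. All 1-week ratios were positive and all 6-week ratios negative. The means were 0.61 ± 0.16 (SE, n = 3, limma adjusted p = 0.640) and -0.28 ± 0.19 (n = 2). Among genes with agreeing spots the 1-week mean missed the threshold (limma adjusted p = 0.0865). With the 6-week dye reversal turned, the 6-week mean was 0.04.

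The promoters of the genes at an unadjusted p under 0.05 at 1 week are shown because the group holds both a ligand of the BMP pathway and genes on its receiving side. RefSeq windows on GRCm38.p6 were matched by symbol for 61 of the 88 members, in 71 windows of 250 bases before to 50 after a start site. 5 of the 7 genes had one, and their stretch from 250 bases before to 20 after the start is printed 5′ to 3′ along the gene. Capitals mark exact matches, on either strand, to any of 5 motifs: TGGGAA (the RBPJ core), GGCGCC (a GC-rich Smad element), GTCTAGAC (a repeated Smad box), CTTTGAT (the TCF/LEF core) and CACGTG (an E-box bound by Hes and Hey). No motif of the 5 contains another. Hey1 and Tgfb1i1 are named only.
Bmp4, chr14:46390650-46390919, minus strand: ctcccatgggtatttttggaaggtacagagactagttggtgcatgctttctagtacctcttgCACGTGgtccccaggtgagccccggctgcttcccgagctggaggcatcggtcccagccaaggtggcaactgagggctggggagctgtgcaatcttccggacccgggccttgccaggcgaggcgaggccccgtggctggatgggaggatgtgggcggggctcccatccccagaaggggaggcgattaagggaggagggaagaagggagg
Fzd4, chr7:89404116-89404385, plus strand: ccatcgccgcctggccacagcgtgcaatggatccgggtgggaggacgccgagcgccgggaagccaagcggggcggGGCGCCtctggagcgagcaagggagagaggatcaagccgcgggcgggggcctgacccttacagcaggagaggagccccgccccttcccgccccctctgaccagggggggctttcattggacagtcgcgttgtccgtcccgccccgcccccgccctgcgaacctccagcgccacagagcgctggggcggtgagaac
Id3, chr4:136143572-136143841, plus strand: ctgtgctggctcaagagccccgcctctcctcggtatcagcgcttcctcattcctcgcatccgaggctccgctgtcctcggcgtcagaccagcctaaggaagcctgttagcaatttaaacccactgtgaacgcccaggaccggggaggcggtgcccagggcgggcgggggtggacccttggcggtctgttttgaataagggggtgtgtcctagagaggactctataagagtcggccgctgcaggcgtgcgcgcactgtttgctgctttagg
Smad1, chr8:79399409-79399678, minus strand: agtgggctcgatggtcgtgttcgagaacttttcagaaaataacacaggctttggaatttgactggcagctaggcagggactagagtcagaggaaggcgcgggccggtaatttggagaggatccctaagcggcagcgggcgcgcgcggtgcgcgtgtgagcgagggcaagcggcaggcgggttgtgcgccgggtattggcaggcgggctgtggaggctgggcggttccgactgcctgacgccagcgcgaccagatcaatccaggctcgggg
Smad6, chr9:64022040-64022309, minus strand: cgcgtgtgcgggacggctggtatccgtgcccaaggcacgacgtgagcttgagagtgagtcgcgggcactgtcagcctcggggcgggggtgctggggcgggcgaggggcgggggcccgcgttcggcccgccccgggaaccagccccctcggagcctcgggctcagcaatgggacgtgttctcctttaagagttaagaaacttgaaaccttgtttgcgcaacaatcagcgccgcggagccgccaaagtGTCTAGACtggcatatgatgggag

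CACGTG began at position -188 from the start of Bmp4, a motif that 7.15% of 32851 windows of the same length hold and 7.04% of the member windows. GGCGCC began at position -175 from the start of Fzd4; 29.6% of the member windows (21 of 71) and 11.9% of all windows hold it. GTCTAGAC began at position -4 from the start of Smad6, the 1 member window with a match against 0.213% of all windows. The windows of Id3 and Smad1 held none of the 5 motifs. TGGGAA was present in 19.7% of member windows and 25.6% of all windows, and CTTTGAT in 2.82% and 3.73%. A match is a description of letters and not a binding site.

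Wnt ligands, the secreted signals that bind Frizzled receptors, had small ratios of either sign. Of 16 measured, 10 had a negative and 6 a positive 1-week mean (62.5% negative, against 51.1% of named genes), from -0.56 (Wnt5b) to 0.19 (Wnt8b), with a median of -0.14. At 6 weeks 11 were positive and 5 negative (31.2% negative, against 5683 of 11138 named genes), from -0.31 (Wnt8a) to 0.32 (Wnt3a), with a median of 0.08. Without both dye-reversed arrays, 8 were positive and 8 negative at 6 weeks. None of the 16 reached an unadjusted p under 0.05 at either time, and none of the 88 members was called over all features. Wnt8a was negative on all 6 arrays, at -0.13, -0.17, -0.07, -0.50, -0.16 and -0.29. Wnt2b was negative on each 1-week array (-0.11, -0.07 and -0.22) and positive on each 6-week array (0.18, 0.11 and 0.25).

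Among 9 Frizzled receptors, Fzd4 and Fzd1 were the ones at an unadjusted p under 0.05 in the fit over all features, and Fzd7 joined them at 6 weeks among genes with agreeing spots. Fzd1 stood at -0.30, -0.06 and -0.21, then at -0.49, -0.29 and -0.61, negative on all 6 arrays with overlapping groups. Its mean was -0.19 ± 0.15 (SE, n = 3) at 1 week and -0.50 ± 0.19 (n = 2, limma adjusted p = 1.00) at 6 weeks, and its spots differed by up to 1.20 within an array. Fzd7 stood at 0.45, -0.05 and -0.23, then at -0.69, 0.13 and -0.80, so its 6-week dye reversal was the 1 array of that group above 0. Its 6-week mean of -0.54 had an SE of 0.23 among genes with agreeing spots and did not pass there (limma adjusted p = 0.619). Fzd6, a receptor of the planar polarity branch, ranged from -0.55 on the array against 6-week control to 0.52 on the 6-week dye reversal. Fzd9 had the highest 1-week mean of all members, 1.18, but this rested on 1 spot: on 1-week replicate 3 its spots read 7.22 and -0.36, while its other 5 array values lay between -0.17 and 0.37.

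The 7 secreted antagonists, which trap Wnt proteins (Sfrp) or, for Dkk1 and Dkk2, bind the Lrp co-receptors, had 4 positive and 3 negative means at 1 week. Sfrp1 was high on both dye-reversed arrays, at 1.89 and 1.77, and stood at -0.60, 0.73, -0.01 and 0.01 on the others. Its spots differed by at most 0.27, so the values repeated within each array and not between arrays of a group. Dkk2 ranged from -0.92 to 0.72 within the 1-week group, and Dkk3 from -0.13 to 0.50. None of the 7 reached an unadjusted p under 0.05.

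**Figure D2:**
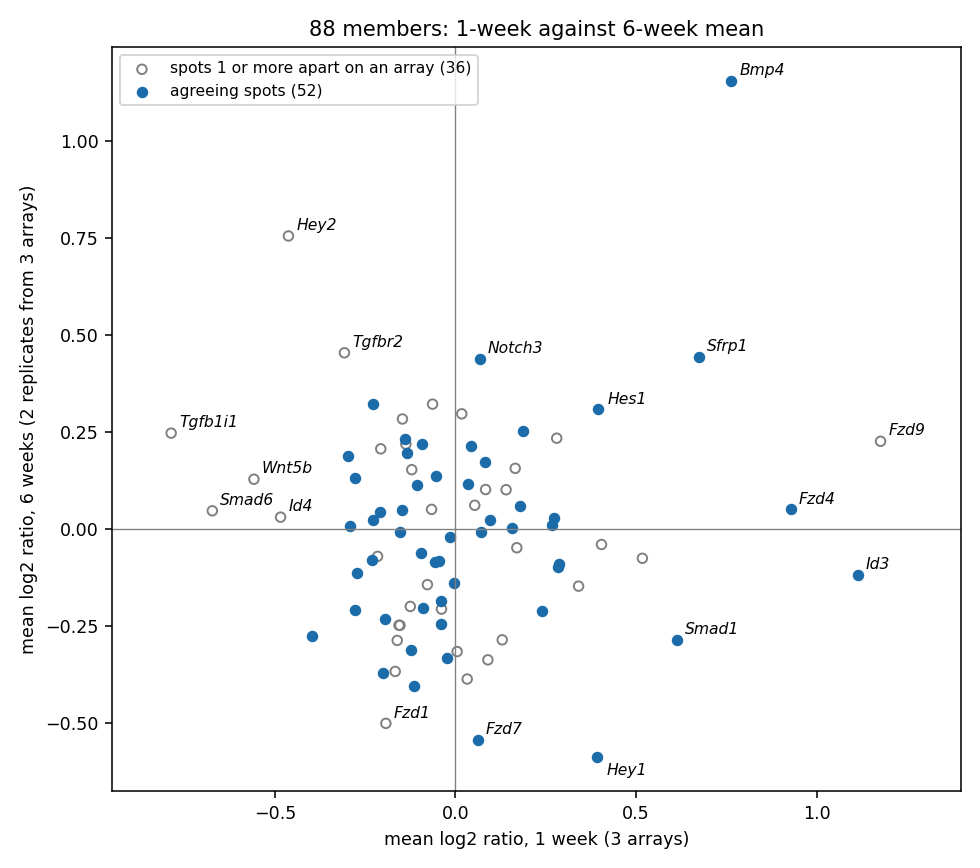
Mean log2 ratio at 1 week (horizontal axis) against 6 weeks (vertical axis) for the 88 members (filled, 52 with agreeing spots; open, 36 without), with arrays signed as deposited. Bmp4 lies apart at 0.76 and 1.16, Fzd4, Id3 and Smad1 lie to the right near or below 0 on the vertical axis, and Tgfb1i1 lies to the left.

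Notch receptors and ligands lay near 0. The 4 receptors had 1-week means between -0.23 (Notch4) and 0.07 (Notch3) and 6-week means between -0.08 (Notch1) and 0.44 (Notch3). Notch4, the receptor most restricted to endothelium, stood at -0.05, -0.42 and -0.22, then at -0.83, 0.20 and 0.15. Notch1, the receptor that holds back sprouting, stood at -0.16, -0.08 and 0.09, then at -0.52, 0.27 and -0.04. Both genes had 6-week arrays on either side of 0. The 4 ligands had 1-week means between -0.27 (Dll1) and 0.00 (Jag2), and all 4 had a negative mean at 6 weeks (3 with the 6-week dye reversal turned), down to -0.33 for Dll4, the ligand of tip cells. Dll4 stood at -0.09, -0.14 and 0.16, then at 0.10, -0.30 and -0.57. None of these 8 genes reached an unadjusted p under 0.05.

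Of the 9 Hes and Hey repressors, several of which are direct Notch targets, 4 had a positive and 5 a negative mean at each time. Hes1 stood at 0.49, 0.09 and 0.59, then at 0.48, 0.35 and 0.20, positive on all 6 arrays with overlapping groups. Its mean over both times was 0.35 ± 0.14 (SE, limma adjusted p = 0.789). Hes5 was negative on all arrays but the 6-week dye reversal, at -0.07, -0.50 and -0.62, then at -0.15, 0.15 and -0.55. Among genes with agreeing spots the mean of Hes5 over both times was -0.34 ± 0.14 (SE, limma adjusted p = 0.322). Hes1 and Hes5 both reached an unadjusted p under 0.05 for that mean there. Hey1 stood at 0.31, 0.31 and 0.55 at 1 week and at 0.04, -1.03 and -0.69 at 6 weeks. The groups did not overlap, and the lowest value was on the 6-week dye reversal. The means of Hey1 were 0.39 ± 0.15 (n = 3, limma adjusted p = 0.745) and -0.59 ± 0.19 (n = 2, adjusted p = 1.00). With the 6-week dye reversal turned its 6-week mean was -0.08, and without both dye-reversed arrays it was -0.32. Hey2, which takes part in arterial fate, ran the other way: its ratios were 0.26, -1.29 and -0.35, then 0.58, 0.60 and 0.92. The 6-week arrays of Hey2 lay above all 1-week arrays, and the difference of 1.22 missed an unadjusted p of 0.05. How many of all features had groups as separate as those of Hey1 and Hey2 was not counted. The value of -1.29 is the mean of spots at -0.48 and -2.11, and Hey2 was not among the genes with agreeing spots.

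Of the 9 BMP ligands, Bmp4 was the one at an unadjusted p under 0.05 in the fit over all features. Bmp7 reached that level for the mean of both times among genes with agreeing spots, at -0.29 ± 0.12 (SE, limma adjusted p = 0.333), with ratios of -0.12, -0.23 and -0.25, then -0.39, 0.10 and -0.59. Bmp2, an endothelial BMP, stood at -0.29, 0.26 and 0.02, then at -0.08, -0.09 and -0.19. Bmp6, made by liver endothelium to set hepcidin, stood at 0.17, 0.20 and 0.45 at 1 week and at -0.43, 0.31 and 0.12 at 6 weeks. Both stayed within 0.50 of 0 on every array. Without Bmp4, the ligand means at 1 week lay between -0.20 (Bmp7) and the next highest ligand, Bmp10, whose arrays read 0.28, 0.74 and 0.19.

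The 10 type I and type II receptors had 7 negative and 3 positive means at 1 week, with a median of -0.13, and 7 positive and 3 negative at 6 weeks, with a median of 0.06 (5 and 5 with the 6-week dye reversal turned). Bmpr2, the receptor mutated in heritable pulmonary hypertension, stood at -0.14, 0.17 and 0.26, then at -0.08, -0.25 and 0.21. Acvrl1, the endothelial receptor also called Alk1, stood at -0.57, -0.01 and -0.30, then at 0.15, 0.22 and -0.17. Tgfbr2, the TGF-beta type II receptor, was negative on the 1-week arrays (-0.17, -0.53 and -0.22) and positive on the 6-week arrays (0.18, 1.35 and 0.14). The groups of Tgfbr2 did not overlap, a pattern not counted over all features. Its spots on 1-week replicate 3 read 1.60 and -2.04, so that array value is the mean of opposite readings. None of the 10 reached an unadjusted p under 0.05 at 1 week or at 6 weeks. The 3 TGF-beta ligands all had a negative mean at 1 week (2 with both dye reversals turned), with a median of -0.10. Tgfb1 stood at -0.05, 0.01 and -0.28, then at -0.09, -0.12 and 0.33.

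The 8 Smads had 4 positive and 4 negative means at 1 week and 1 positive and 7 negative at 6 weeks, where none reached an unadjusted p under 0.05. With the 6-week dye reversal turned there were 3 positive and 5 negative at 6 weeks. The median was 0.02 at 1 week and -0.19 at 6 weeks. Smad1 had the highest 1-week mean, 0.61, and Smad6, which inhibits BMP receptors, the lowest. Smad6 stood at -0.69, -0.13 and -1.20 at 1 week and at 0.49, -0.37 and 0.03 at 6 weeks, and the groups overlapped. Its 1-week mean was -0.67 ± 0.24 (SE, n = 3, limma adjusted p = 0.739), with spots of -2.82 and 0.42 on replicate 3; leaving out 1 array at a time moved it between -0.94 and -0.41. Smad7, the other inhibitory Smad, stood at 0.65, 0.04 and 0.17, then at -0.18, -0.28 and 0.04. Smad5, the partner of Smad1 in BMP signalling, stood at 0.13, 0.19 and -0.69, then at -0.63, 0.65 and -0.41. Smad4, the common partner of both branches, stayed between -0.33 and 0.55.

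Id genes, which BMP signals induce in endothelium, did not share the 1-week ratio of Id3. Id1 stood at 0.52, -0.22 and 0.24, then at 0.41, 0.33 and -0.25. Id2 stood at -0.13, -0.08 and -0.02, then at -1.21, 0.34 and 0.15, where the first 6-week value came from 1 spot at -5.59 beside 3 spots between 0.14 and 0.44. Id4 ranged more widely, from -1.55 on 1-week replicate 3 to 1.69 on the 6-week dye reversal.

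Of the 5 relatives by name, Tgfb1i1 was the one at an unadjusted p under 0.05 in the fit over all features. It stood at -0.68, -0.71 and -0.97 at 1 week and at 0.18, 0.40 and 0.20 at 6 weeks. All 1-week ratios were negative and all 6-week ratios positive. The means were -0.79 ± 0.15 (SE, n = 3, limma adjusted p = 0.479) and 0.25 ± 0.19 (n = 2). Its spots differed by 1.22 on 1-week replicate 2, at -0.10 and -1.32, which kept it out of the genes with agreeing spots. With both dye reversals turned the 1-week mean was -0.33. Tgfbr3, a co-receptor that presents TGF-beta and BMPs, stood at -0.41, -0.34 and 0.27, then at 0.34, -0.63 and -0.43.

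**Figure D3:**
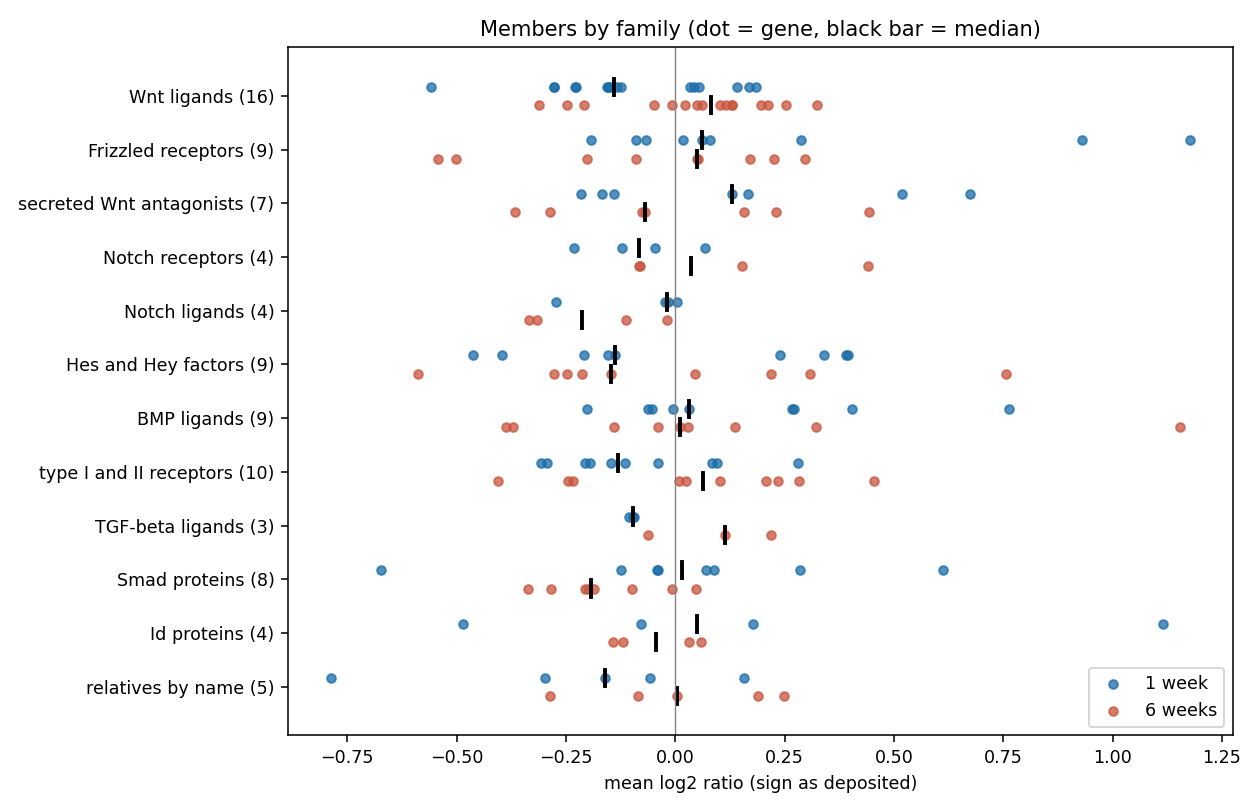
Mean log2 ratio of each member (points) by family at 1 week and at 6 weeks, with a bar at the family median. Family medians lie between -0.21 and 0.13, and single genes reach 1.18 at 1 week (Fzd9) and 1.16 at 6 weeks (Bmp4).

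The difference between the exposures asks whether the mean ratio of a gene differed between 6 weeks and 1 week. Over all features limma called 0.0% in this contrast and 0 members (smallest adjusted p = 0.952). At an unadjusted p under 0.05 there were 5 members, against 3.55% of all features. In 4 the 6-week ratio was the lower one (background 1.83%), with differences of -1.23 ± 0.31 (SE) for Id3, -0.98 ± 0.24 for Hey1, -0.90 ± 0.25 for Smad1 and -0.88 ± 0.25 for Fzd4. In Tgfb1i1 it was the higher one, by 1.03 ± 0.24 (background 1.72%). Among genes with agreeing spots 0.0% were called by limma in this contrast, and 4 members (Id3, Hey1, Smad1 and Fzd4) against 6.72% of genes were at an unadjusted p under 0.05. The controls differed between the times, since 1 of the 2 6-week replicates used the control of 1 week and the other a control of 6 weeks. With both dye reversals turned, 0 members had an unadjusted p under 0.05 in this contrast. The share of all features with both turned is not given for it.

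Counts of shared sign across arrays rest on the signs of the dye-reversed arrays. As deposited, on all 6 arrays 2 members were positive (Bmp4 and Hes1), against 2.21% of all features and 3.24% of named genes, and 2 were negative (Fzd1 and Wnt8a), against 2.35% and 3.43%. On the 3 1-week arrays 13 members were all positive, against 11.7% of all features and 15.4% of named genes, and 19 were all negative, against 12.1% and 15.2%. On the 3 6-week arrays 9 were all positive, against 8.84% and 11.7%, and 6 all negative, against 9.39% and 12.5%. Opposite signs at the times, each shared by 3 arrays, occurred in 4 members (4.55%) against 1.85% of all features and 2.66% of named genes. Smad1 went from positive to negative (1.03% of all features, 1.46% of named genes), and Tgfb1i1, Tgfbr2 and Wnt2b from negative to positive (0.816% and 1.19%). Turning 1 array of a group always breaks a sign shared by its 3 arrays, so these 4 could not keep the pattern. With the 6-week dye reversal turned it occurred in 4 other members (Acvr2a, Id3, Smad6 and Tgfbi) against 1.75% of all features. With both turned it occurred in 0 members against 1.04%. With both turned, 0 members were positive and 4 negative on all 6 arrays, against 1.86% and 2.68% of all features, and at 1 week 7 were all positive and 12 all negative, against 9.89% and 11.1%.

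The members varied slightly less between arrays than other named genes. Their median range over the 6 arrays was 0.903 log2 units against 1.02 over named genes, and 16 members (18.2%) against 28.5% of named genes exceeded 1 in size on any array. Spots over 1 apart were found in 4 to 13 members on each array, with the most on 1-week replicate 3. Across the 88 members, which are not independent replicates, the 1-week arrays correlated at r = 0.0977, 0.328 and 0.279, and the 6-week array with its dye reversal at r = -0.222 (0.0723 among members with agreeing spots). Over the 88 the highest correlation of any pair was 0.361, between the 2 dye-reversed arrays. Over the 52 members with agreeing spots that pair correlated at 0.424, below 1-week replicates 1 and 3 (0.598) and replicates 2 and 3 (0.564).

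**Figure D4:**
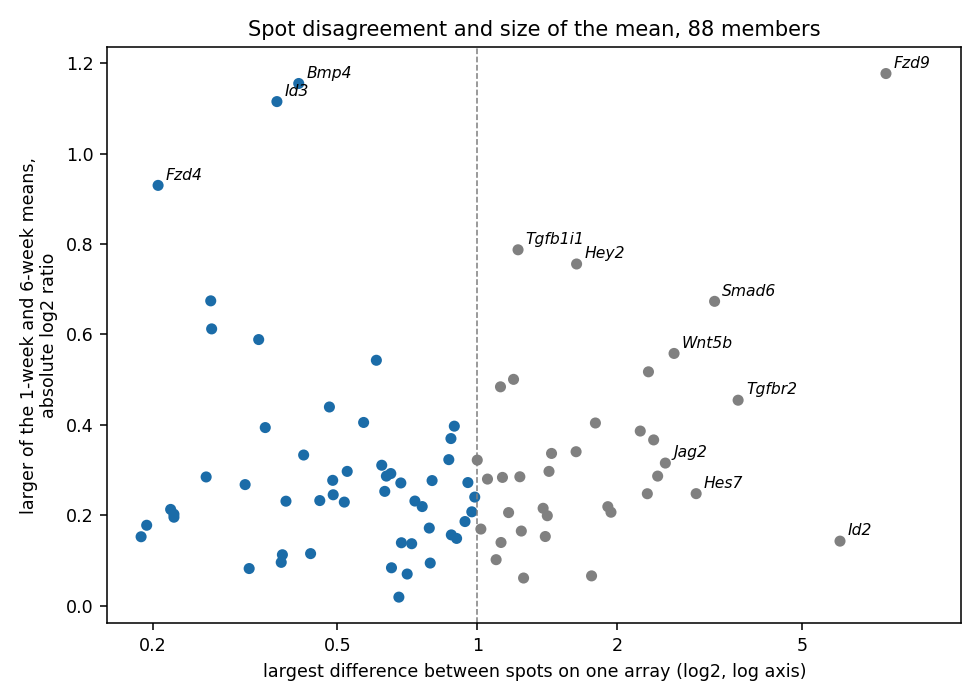
Largest difference between spots of a gene on any array (horizontal axis, log2 units, log scale) against the larger of the absolute 1-week and 6-week means (vertical axis) for the 88 members, with a dashed line at 1. Fzd4, Id3 and Bmp4 lie left of the line with differences up to 0.41, while Fzd9 and Smad6 lie right of it at 7.58 and 3.24.

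**Figure D5:**
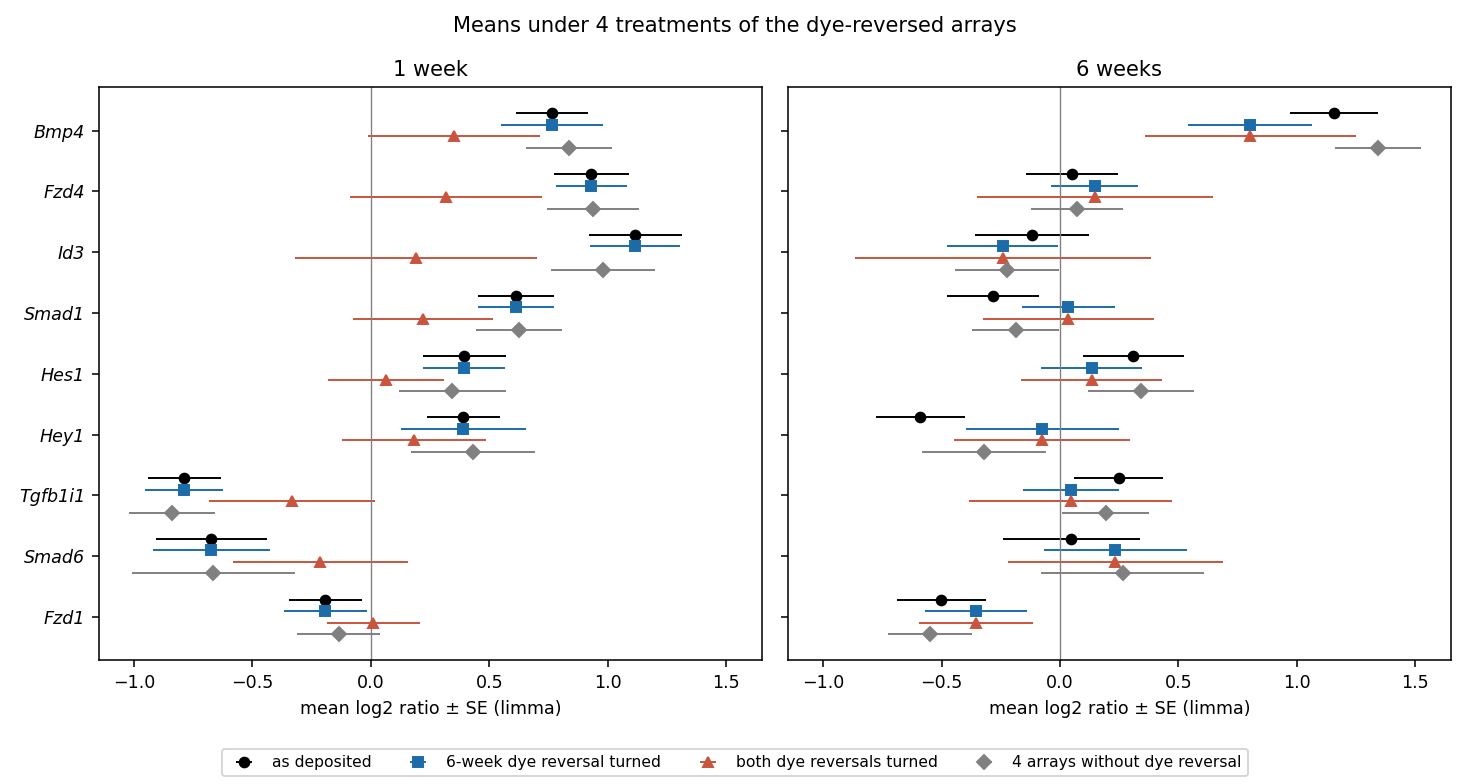
Mean log2 ratio with its limma SE at 1 week and 6 weeks for the 9 members that reached an unadjusted p under 0.05 at a single time or over both, under 4 treatments of the dye-reversed arrays. Bmp4 stays above 0 under all 4 (0.35 to 0.84 at 1 week), and turning both reversals brings Fzd4, Id3 and Smad1 to between 0.19 and 0.32 at 1 week.

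Other genes of the pathways, taken from lists of known partners, likewise lay around 0. Of 39 Wnt partners measured (51 listed), 23 had a positive and 16 a negative mean at 1 week, with a median of 0.05, and 19 and 20 at 6 weeks, with a median of -0.01. At an unadjusted p under 0.05 there was 1 at 1 week and 2 at 6 weeks, all positive, against 6.65% and 4.12% of all features. Ryk, a Wnt receptor without kinase activity, stood at 0.80, 0.27 and 0.28, then at 0.54, 0.89 and 0.83, with means of 0.45 ± 0.18 (SE, limma adjusted p = 0.745) and 0.77 ± 0.22 (adjusted p = 1.00). Frzb, a Wnt antagonist named here after its values were seen, was the other at 6 weeks, with a mean of 1.31 ± 0.40 (SE). Spots of Frzb differed by up to 1.20 within an array, and its 1-week arrays read 1.33, -0.0048 and -0.03. Of 23 Notch partners measured (34 listed), 11 were positive and 12 negative at 1 week, and 10 and 13 at 6 weeks. An unadjusted p under 0.05 was reached by 1 at 1 week, against 6.65% of all features, and by 0 at 6 weeks, against 4.12%. The 1 was Adam17, which sheds receptor ectodomains, named after its values were seen. Nrp1, a co-receptor of VEGF, was negative on all 6 arrays, with means of -0.55 and -0.51, and Aph1b, a subunit of gamma-secretase, positive on all 6.

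Of 38 BMP and TGF-beta partners measured (52 listed), 17 were positive and 21 negative at each time. At an unadjusted p under 0.05 there were 1 positive (Ccn2) and 1 negative (Eng) at 1 week, against 3.53% and 3.12% of all features. There were 2 positive (Ccn2 and Sost) at 6 weeks, against 2.18%. Spots of Sost differed by up to 2.17 within an array. Ccn2, the connective tissue growth factor that TGF-beta induces, stood at 0.62, 0.48 and 1.51, then at 1.16, 1.69 and 1.41, positive on all 6 arrays. Its means were 0.87 ± 0.24 (SE, n = 3, limma adjusted p = 0.659) and 1.42 ± 0.30 (n = 2, adjusted p = 0.957), and among genes with agreeing spots its mean over both times passed (limma adjusted p = 0.0137). Eng, the endoglin co-receptor of endothelium, stood at -0.56, -0.61 and -0.32, then at -0.29, -1.20 and -0.23, negative on all 6. No partner of the 3 lists passed over all features.

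Markers of cell types moved in part beside these genes. Of the 17 endothelial markers, 5 were negative on all 6 arrays (Eng, Emcn, Cldn5, Egfl7 and Sox18), against 2.35% of all features and 3.43% of named genes. 1 was positive on all 6 (Tek), against 2.21% and 3.24%. The list had medians of -0.06 at 1 week and -0.26 at 6 weeks. By array the 6-week medians were -0.21 against 1-week control, -0.48 on its dye reversal and 0.01 against 6-week control. In limma 1 of the 17 was positive and 4 negative at an unadjusted p under 0.05 at 1 week (3.53% and 3.12% of all features). For the 6-week means 0 of the 17 were positive and 1 negative at that level (2.18% and 1.94%). Of the 14 mural and fibroblast markers, 5 were positive and 9 negative at 1 week, with a median of -0.09, and 8 and 6 at 6 weeks, with a median of 0.08. At an unadjusted p under 0.05 in limma, 0 of the 14 were positive and 3 negative at 1 week (3.53% and 3.12% of all features). At 6 weeks 2 were positive and 0 negative (2.18% and 1.94%). Named after their values were seen, Postn, a matrix protein of fibroblasts, had means of 0.61 and 2.25. Acta2, smooth muscle actin, had 0.46 and 1.14, whereas Dpt stood at -1.33 and -0.53. For the mean of both times these 3 and the endothelial Cldn5 passed among genes with agreeing spots, as Bmp4 and Ccn2 did, with positive means for Postn (limma adjusted p = 0.0343) and Acta2 (adjusted p = 0.0364) and negative ones for Dpt (adjusted p = 0.0240) and Cldn5 (adjusted p = 0.0225). The part of a changed cell mixture in the ratios of Bmp4 and Ccn2 was not tested, and fewer cells of a type cannot be told apart from less RNA per cell. Medians of 16 leukocyte markers were -0.06 and -0.03, of 10 epithelial markers -0.12 and 0.04, and of 3 erythroid markers -0.26 and -0.21. Single means went further, to -0.58 for Lyz2 at both times and 0.95 for Alas2 at 1 week. An unadjusted p under 0.05 was reached by 1 leukocyte marker, negative, at each time (3.12% and 1.94% of all features). It was reached by 1 erythroid marker, positive, at 1 week (3.53%), and by 0 epithelial markers at either time.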

How the data were processed

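Smoke and control RNA of sorted mouse endothelium shared each of 6 arrays of 2 channels, per the labels. The deposited values are log2 ratios, 1 for every array of each of 32448 features; log base, scale and centring are read from the values, which are log2 of folds in whole hundredths (100% of values, tolerance 0.02 of a hundredth) with an array median of 3e-07. Scanner, background correction, normalization and dye of each channel are not given in the sources used here.

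A probe table paired 24344 features with 1 symbol, 98 with several and 8006 with none; 24076 matched RefSeq and 0 symbols changed. Spots of a gene were averaged per array. The fit used 11138 named genes and 8104 unnamed features together. The dye pair at 6 weeks was averaged. lmFit and eBayes (limma 3.58.1, R 4.3.3) were run on the 5 replicates so formed, with 1 coefficient per exposure time, with two-sided tests, Benjamini-Hochberg adjustment over all 19242 tests and a threshold of 0.05. Residual degrees of freedom were 3 and prior degrees of freedom 2.39 (5.62 among genes with agreeing spots). The code was tested on simulated data.

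Members and lists were chosen with earlier results of these data known, as was the limit of 1 log2 unit between spots. Members named in the text reached an unadjusted p under 0.05 in any contrast or had 1 sign on all 6 arrays. Others passed among genes with agreeing spots, belong to the genes best known in endothelium, or had 1 of the 5 largest ranges. Genes at the ends of family ranges, Hes5, Fzd7, Wnt2b, Bmp10 and single cell type markers were named after their values were seen. From each partner list up to 4 with 1 sign on all arrays were named. Alternatives changed the sign, weight and averaging of dye-reversed arrays, spot limit, scaling, variance model and each array in turn.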

Additional observations from a re-analysis of the deposited data

Results flagged for a closer look

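4 members had 1 sign on all 3 arrays at 1 week and the opposite sign on all 3 arrays at 6 weeks, and their difference was tested in limma's contrast of 6 weeks minus 1 week. Smad1 had a difference of -0.90 and Tgfb1i1 of 1.03, both at an unadjusted p under 0.05, and Tgfbr2 had one of 0.76 and Wnt2b of 0.33, neither of which reached it. Each had the same value after adjustment (limma adjusted p = 0.952) over all 19242 tests, and 1.85% of all features had such a pattern. None of the 4 could keep it with the 6-week dye reversal turned or with both turned, since turning 1 of 3 arrays always breaks their shared sign. Tgfb1i1 and Tgfbr2 had spots over 1 log2 unit apart on an array (1.22 and 3.64), and Smad1 did not (0.27). No group held 4 arrays or more, so none was tested for a single outlying array.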

How the results depend on the processing

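With arrays signed as deposited and all features in the fit, 0 members were called in each contrast under 17 of the 19 alternatives. The other two were fits on fewer genes: agreeing spots gave 3 calls at 1 week and 1 for the mean of both times, and spots within 0.5 log2 units gave 3 at 1 week, 1 at 6 weeks and 2 for the mean. Members at an unadjusted p under 0.05 numbered 7 at 1 week (1 with both dye reversals turned, 13 without variance moderation, 5 to 9 leaving out 1 array), 3 at 6 weeks (1 with the 6-week reversal turned, 1 with dye as a term, 8 without moderation, 2 to 5 leaving out 1 array), 5 for the difference (3 with the 6-week reversal turned, 0 with both turned, 10 without moderation, 5 to 6) and 5 for the mean (2 with the 1-week reversal averaged with replicate 3, 11 without moderation, 2 to 7).

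Among genes with agreeing spots, the 3 calls at 1 week became 2 with the 6-week reversal turned, 0 with both turned, 0 without both dye-reversed arrays, 2 with the dye pair kept separate, 1 and 0 with the 1-week reversal averaged with replicate 2 or 3, 0 without moderation, and 0 to 2 leaving out 1 array. The 0 calls at 6 weeks became 1 with spots within 0.5, with the dye pair separate, with the reversal averaged with replicate 3 and with robust moderation, and 0 to 1 leaving out 1 array. The 1 call for the mean became 0 with the 6-week reversal turned, 0 with both turned, 0 without moderation, 2 with spots within 0.5, and 0 to 1 leaving out 1 array. The member median at 1 week, -0.05, was 0.012 with both reversals turned and 0.038 with spots within 0.5 (-0.05 to -0.03 leaving out 1 array), and at 6 weeks it was 0.0056 (-0.05 to 0.0056 leaving out 1 array, 0.034 with the 6-week or both reversals turned, 0.031 with spots within 0.5). Apart from the fit on agreeing spots as deposited, the share of all features called or at an unadjusted p under 0.05 is not given for these alternatives. The counts under them therefore describe the members only. Why these values moved was not tested. Of 1404 values of named members under alternatives, 103 changed sign, none of them at an unadjusted p under 0.05 as deposited. Leaving out an array of 6 weeks can leave 1 replicate there, taken to vary like the others. Each ratio already pairs smoke with control RNA on its array. Arrays of 1 week could not be paired with those of 6 weeks, because the labels carry no replicate numbers. The replicate numbers used here are therefore not from the labels. The small number of arrays limits all precision.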
